A study of Homo sapiens with 22 samples.

Results

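VTCN1 and 4 other genes for immune checkpoint ligands, CD274, CD276, PVR and LGALS9, were followed across all 11 groups of a series on PC9 cells. They were taken by symbol, and all 5 had a row among the 17165 genes listed. VTCN1 was chosen because it showed the largest rise of any gene in GR2 cells given WZ4002, so its values in GR2 cells, and all 5 genes' values in that comparison, are given as a description with no test. The other 4 were chosen by name as ligands of the same kind, with earlier results of these data known.

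Checkpoint ligands are surface or secreted proteins with which a cell restrains the T cells and natural killer cells that meet it. VTCN1 (also called B7-H4), CD274 (PD-L1) and CD276 (B7-H3) belong to the B7 family of immunoglobulin-domain proteins. PD-L1 binds the receptor PD-1 on T cells, is induced by interferon gamma, and is a target of antibody therapy in lung cancer. VTCN1 inhibits T cell activation through a receptor that is not settled, and CD276 likewise has no settled receptor. PVR (CD155) is a nectin-like adhesion molecule that binds the inhibitory receptors TIGIT and CD96 and the activating receptor CD226. LGALS9 encodes galectin-9, a secreted lectin that binds TIM-3 and other glycoproteins on T cells.

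PC9 is an established human lung adenocarcinoma line that depends on a mutant, active EGFR. Gefitinib inhibits this receptor reversibly, and WZ4002 inhibits it by a covalent bond formed through its acrylamide group. Parental PC9 cells received gefitinib, WZ4002 or vehicle. The derivatives PC9-GR2 (GR2) and PC9-GR3 (GR3) received WZ4002 or vehicle, the gefitinib-tolerant PC9 population received gefitinib or vehicle, and the WZ4002-tolerant PC9 population received WZ4002 or vehicle. Each of the 11 groups had 2 libraries of polyadenylated RNA, taken after 24 h at a labelled dose of 1 mM for either inhibitor, a unit that is in doubt. The sources used here do not say how the derivatives were raised, whether each is 1 clone, or whether the 2 libraries of a group are from different cultures. The p-values therefore speak only of the variation seen between these libraries, part or all of which could be technical.

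Values are the deposited CPM (read counts scaled to library size), which were not divided by gene length, so levels are compared between groups and not between genes. Depth was 23.6 to 49.6 M reads per library. The genes VTCN1 and PVR rested on 17 to 16461 and 1750 to 11549 reads per library, CD276 on 1346 to 2702, CD274 on 20 to 607 and LGALS9 on 2 to 66. The keratins KRT8, KRT18 and KRT19, EPCAM and CDH1 were at 106.9 CPM or more in all 22 libraries, while the lung lineage factor NKX2-1 was at 0.08 to 1.7 CPM. DUSP6, a phosphatase switched on by ERK signalling, was at 0.345 CPM with gefitinib and 106.7 CPM with vehicle in parental cells (log2 difference -6.32 ± 0.41 SE, adjusted p = 1.23e-07), and fell in each other population given a drug. Of 11 leukocyte markers, 4 had a row, CD14, ITGAM, HLA-DRA and CD74, and their summed level was higher in the drug-treated than in the vehicle-treated libraries of each population (13.3 to 16.8 against 4.42 to 4.68 CPM in GR3 cells, the highest, and 3.55 to 8.76 against 0.34 to 0.52 CPM in GR2 cells). PTPRC, CD3E and the other 5 markers were not analysed here. Of 10 endothelial and fibroblast markers, 7 had a row, and CDH5 (1.91 to 37.2 CPM) and COL1A1 (5.27 to 18.4 CPM) made up most of their sum, while KDR and COL1A2 were at 0.24 CPM or less. Their summed level was higher with drug in gefitinib-tolerant cells (45.1 to 48.3 against 14.1 to 25.0 CPM with vehicle) and WZ4002-tolerant cells (28.7 to 55.7 against 19.1 to 26.6 CPM). It was lower in parental cells, at 14.9 to 20.3 CPM with gefitinib and 12.6 to 16.8 CPM with WZ4002, against 27.1 to 27.7 CPM with vehicle, slightly lower in GR2 cells (20.7 to 21.5 against 22.1 to 23.6 CPM), and overlapped in GR3 cells. All libraries are labelled as PC9 cells, and which cells the reads of these markers came from was not tested.

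The sequence around the start of transcription is shown for the 4 genes with a single entry in RefSeq's table of promoters (GRCh38.p14). Of these, 3 changed with the drugs in several populations. Each runs 5′ to 3′ on the strand of its gene, from 250 bases before the start to base 10 of the transcript. Capitals mark matches to the letters of 5 motifs searched on both strands: FOXO (GTAAACA), AP-1 (TGACTCA), ISRE (GAAA and GAAA with any 2 bases between), GAS (TTCNNNGAA) and ETS (CCGGAAGT).
VTCN1: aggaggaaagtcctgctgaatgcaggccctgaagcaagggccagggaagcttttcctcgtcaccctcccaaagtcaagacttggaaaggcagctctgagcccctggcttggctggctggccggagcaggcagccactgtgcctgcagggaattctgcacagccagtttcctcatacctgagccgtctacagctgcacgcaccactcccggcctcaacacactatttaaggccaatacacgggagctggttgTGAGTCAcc
CD274: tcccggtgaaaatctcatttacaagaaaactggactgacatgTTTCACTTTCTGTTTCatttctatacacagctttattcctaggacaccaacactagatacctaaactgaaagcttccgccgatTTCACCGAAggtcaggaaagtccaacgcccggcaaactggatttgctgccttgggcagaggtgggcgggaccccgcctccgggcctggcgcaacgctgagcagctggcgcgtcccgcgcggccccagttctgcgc
PVR: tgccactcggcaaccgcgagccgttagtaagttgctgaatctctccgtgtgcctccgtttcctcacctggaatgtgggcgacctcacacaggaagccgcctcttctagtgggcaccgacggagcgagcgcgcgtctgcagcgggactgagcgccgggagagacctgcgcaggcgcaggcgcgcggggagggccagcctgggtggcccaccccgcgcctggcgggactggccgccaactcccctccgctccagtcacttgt
LGALS9: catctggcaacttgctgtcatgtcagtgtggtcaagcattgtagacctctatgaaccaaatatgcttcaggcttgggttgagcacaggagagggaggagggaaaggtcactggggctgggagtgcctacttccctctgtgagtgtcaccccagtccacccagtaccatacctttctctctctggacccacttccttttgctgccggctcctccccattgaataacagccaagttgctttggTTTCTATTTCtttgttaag
These lie at chr1:117210918-117211177 on the minus strand (VTCN1) and, on the plus strand, at chr9:5450292-5450551 (CD274), chr19:44643660-44643919 (PVR) and chr17:27630938-27631197 (LGALS9). The VTCN1 window held 1 AP-1 match, at bases 2 to 8 of the transcript (printed as TGAGTCA, and TGACTCA on the other strand). AP-1 motifs are bound by FOS and JUN proteins. The CD274 window held 2 overlapping ISRE matches, at bases -208 to -199 and -202 to -193, and 1 GAS match at bases -125 to -117. ISRE and GAS are the motifs of interferon-activated STAT and IRF factors. LGALS9 had 1 ISRE match across its start, at bases -9 to 1 (no base 0), and the PVR window had none of the 5 motifs. Among 35116 promoter windows of the same length, 4.44% held the AP-1 letters, 3.2% the ISRE, 6.83% the GAS, 3.11% the FOXO and 3.77% the ETS letters. The 4 windows differed in base composition, with 6 CpG in VTCN1, 17 in CD274, 27 in PVR and 1 in LGALS9, against a median of 11 over all windows. A match is a run of letters, not a shown binding site.

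**Figure D1:**
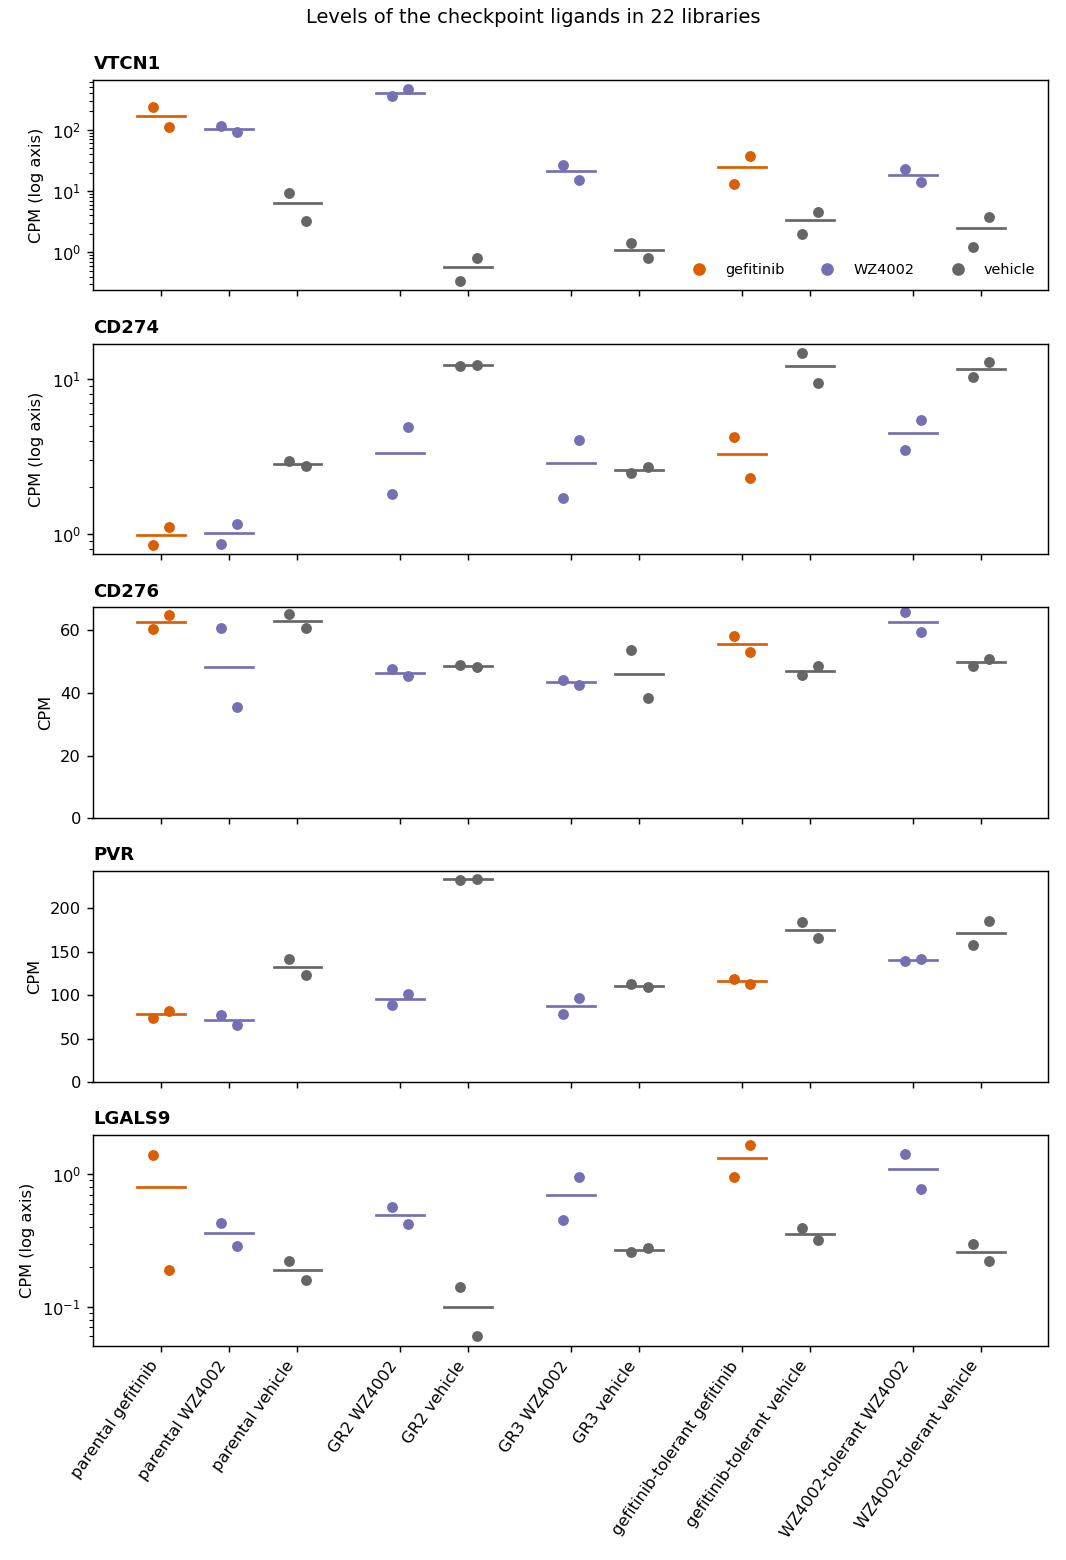
CPM of the 5 genes in each of 22 libraries (points) with the mean of each group of 2 (line), on a log axis for VTCN1, CD274 and LGALS9 and a linear axis for CD276 and PVR. Orange marks gefitinib, violet WZ4002 and grey vehicle, and every drug-treated library lies above every vehicle-treated one for VTCN1, from 13.18 CPM upward against 9.31 CPM at most. How many other genes part in this way was not counted.

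VTCN1 was higher in drug-treated than in vehicle-treated cells in all 5 populations. Its level was 13.18 to 460.57 CPM in the 12 drug-treated libraries and 0.34 to 9.31 CPM in the 10 vehicle-treated ones. The 2 kinds of library did not overlap, with the GR2 libraries that led to the choice among them. The share of all genes that part in this way was not counted. In GR2 cells, whose values led to its choice, it stood at 352.59 and 460.57 CPM with WZ4002, against 0.34 and 0.80 CPM with vehicle. That is a ratio of 713 between the group means and a log2 difference of 8.02 (of CPM plus 1, the scale of all differences here, which understates the change of low genes), the largest of the 15485 genes tested.

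VTCN1 was chosen by its rise in GR2 cells, but earlier results of these data were known at that time. Its tests in the other populations may therefore not be wholly independent of the choice. Parental cells had 232.62 and 109.87 CPM with gefitinib and 117.24 and 91.11 CPM with WZ4002, against 9.31 and 3.25 CPM with vehicle. All 4 drug-treated libraries were far above both vehicle libraries, although the levels of the 2 vehicle libraries were themselves far apart. The rise was 4.60 ± 0.53 on the log2 scale with gefitinib (27.3-fold between mean CPM, limma adjusted p = 1.12e-05) and 3.98 ± 0.53 with WZ4002 (16.6-fold, adjusted p = 3.32e-05). It ranked as the 9th and the 22nd largest rise of all genes tested. Without the 1st or the 2nd vehicle library the gefitinib difference was 5.24 or 3.96 and the WZ4002 difference 4.62 or 3.34, and no left-out library ended either call. In bulk RNA, a change in some of the cells and a smaller change in all of them cannot be told apart.

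GR3 cells had 27.09 and 15.43 CPM with WZ4002, against 1.40 and 0.81 CPM with vehicle, a difference of 3.37 ± 0.53 (19.2-fold, adjusted p = 0.000433). VTCN1 had the 4th largest rise of all genes there, from a vehicle level below that of parental cells. Gefitinib-tolerant cells had 13.18 and 37.14 CPM with gefitinib, against 2.02 and 4.60 CPM with vehicle (2.50 ± 0.53, 7.6-fold, adjusted p = 0.0034). WZ4002-tolerant cells had 22.99 and 14.18 CPM with WZ4002, against 1.22 and 3.73 CPM with vehicle (2.56 ± 0.53, 7.51-fold, adjusted p = 0.00254). The groups were apart in both tolerant populations, a pattern not counted over all genes, but the libraries of a pair differed widely. The call in gefitinib-tolerant cells was lost without the 2nd gefitinib library (1.79, adjusted p = 0.08) or the 1st vehicle library (2.05, adjusted p = 0.0678), and that in WZ4002-tolerant cells without the 1st vehicle library (2.01, adjusted p = 0.0555).

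By group means VTCN1 was highest in GR2 cells with WZ4002, then in parental cells with gefitinib and with WZ4002, whose libraries overlapped. The drug-treated gefitinib-tolerant, GR3 and WZ4002-tolerant cells followed at 25.2, 21.3 and 18.6 CPM and overlapped each other. Among vehicle-treated cells the order was parental (6.28 CPM), gefitinib-tolerant (3.31), WZ4002-tolerant (2.48), GR3 (1.11) and GR2 (0.570), with the first 4 overlapping their neighbours in this order.

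The drug changes of the genes differed in direction. LGALS9 passed the filter on low values only through drug-treated libraries, so it is left out of these counts. In parental cells given gefitinib, 1 of the other 4 rose (VTCN1) and 2 fell (CD274 and PVR), where 45.3% of all 15485 genes passed the threshold, an adjusted p under 0.05. WZ4002 gave the same count in parental cells, 1 up and 2 down, where 47.5% of genes passed. In GR3 cells 1 of 4 rose (VTCN1) and 0 fell, where 22% of genes passed. In gefitinib-tolerant cells 1 of 4 rose (VTCN1) and 2 fell (CD274 and PVR), where 28.7% of genes passed. In WZ4002-tolerant cells 1 of 4 rose (VTCN1) and 1 fell (CD274), where 32.6% of genes passed. In GR2 cells 55.7% of genes passed, and the 5 genes were not tested there. The median difference over all genes lay between -0.02 and 0.04 in every comparison.

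**Figure D2:**
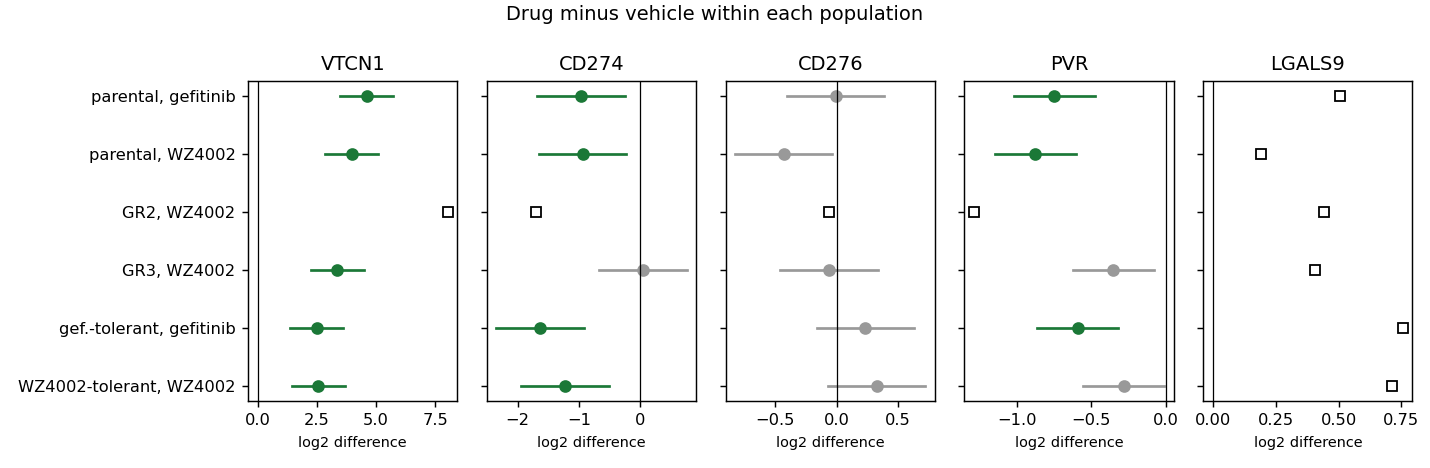
Log2 difference of CPM plus 1, drug minus vehicle, for the 5 genes (panels, each with its own scale) in 6 comparisons (rows), with 95% confidence intervals (lines). Green marks an adjusted p under 0.05, grey the rest, and the open squares are GR2 cells and all values of LGALS9, which are shown with no test. VTCN1 lies right of 0 in every row, PVR left of 0 in every row, and CD274 left of 0 except in GR3 cells.

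CD274, which encodes PD-L1, was lower in drug-treated cells of 4 populations and not in GR3 cells. Parental cells had 0.85 and 1.11 CPM with gefitinib and 0.86 and 1.16 CPM with WZ4002, against 2.96 and 2.73 CPM with vehicle. The groups did not overlap, at 20 to 56 reads per drug-treated library, a pattern whose share over all genes was not counted. CD274 fell by 0.96 ± 0.34 on the log2 scale with gefitinib (2.9-fold lower mean CPM, adjusted p = 0.03) and by 0.94 ± 0.34 with WZ4002 (adjusted p = 0.0317). Both calls were lost whichever library of the comparison was left out, at adjusted p of 0.0693 to 0.133 for gefitinib (1st gefitinib library 0.133, 2nd gefitinib 0.0693, 1st vehicle 0.12, 2nd vehicle 0.0776) and 0.0638 to 0.127 for WZ4002 (1st WZ4002 library 0.127, 2nd WZ4002 0.0638, 1st vehicle 0.123, 2nd vehicle 0.0808). Their size moved little, to between 0.87 and 1.05 lower and between 0.83 and 1.05 lower.

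CD274 fell with drug in both tolerant populations as well. Gefitinib-tolerant cells had 4.24 and 2.30 CPM with gefitinib, against 14.77 and 9.51 CPM with vehicle (-1.63 ± 0.34, adjusted p = 0.00309). WZ4002-tolerant cells had 3.48 and 5.46 CPM with WZ4002, against 10.32 and 12.92 CPM with vehicle (-1.22 ± 0.34, adjusted p = 0.0132). Drug and vehicle libraries stayed apart in both, and the share of all genes that do so was not counted. The gefitinib-tolerant call was lost without the 2nd gefitinib library (-1.30, adjusted p = 0.0657) or the 1st vehicle library (-1.34, adjusted p = 0.0646). The WZ4002-tolerant call was lost without the 1st WZ4002 library (-0.96, adjusted p = 0.113), the 1st vehicle library (-1.37, adjusted p = 0.0556) or the 2nd vehicle library (-1.07, adjusted p = 0.0727).

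GR2 cells had 1.81 and 4.90 CPM of CD274 with WZ4002, against 12.24 and 12.37 CPM with vehicle, a log2 difference of -1.71. The WZ4002 libraries differed between themselves and both lay well below the vehicle pair. GR3 cells had 1.71 and 4.02 CPM with WZ4002, against 2.47 and 2.69 CPM with vehicle, and the 2 WZ4002 libraries lay on either side of the vehicle pair. The difference was 0.04 ± 0.34 with an interval of -0.67 to 0.76 (adjusted p = 0.944). Without the 1st or the 2nd WZ4002 library it was 0.49 or -0.40, neither past the threshold.

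PVR was lower in every drug-treated library than in either vehicle-treated library of its population, a pattern whose share over all genes was not counted. Parental cells had 74.04 and 82.02 CPM with gefitinib and 76.99 and 66.05 CPM with WZ4002, against 141.57 and 122.87 CPM with vehicle. It fell by 0.75 ± 0.13 on the log2 scale with gefitinib (adjusted p = 0.000287) and by 0.88 ± 0.13 with WZ4002 (adjusted p = 7.69e-05). Both calls held without any 1 library. PVR had the most reads of the 4 genes other than VTCN1 and its libraries agreed more closely than those of VTCN1 or CD274.

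Gefitinib-tolerant cells had 118.5 and 113.21 CPM of PVR with gefitinib, against 184.69 and 166.15 CPM with vehicle (-0.59 ± 0.13, adjusted p = 0.004). This call was lost without the 1st vehicle library (-0.52, adjusted p = 0.0667) or the 2nd gefitinib library (-0.56, adjusted p = 0.0527). In GR2 cells the values were 88.75 and 101.40 CPM with WZ4002, against 232.94 and 234.37 CPM with vehicle, a difference of -1.29 and the widest of PVR in the series. The other 2 differences were smaller and missed the threshold. GR3 cells had 78.18 and 96.24 CPM with WZ4002, against 112.35 and 109.65 CPM with vehicle (-0.35, interval -0.62 to -0.08, adjusted p = 0.0609), and passed it without the 2nd WZ4002 library (-0.50, adjusted p = 0.042). WZ4002-tolerant cells had 139.10 and 141.91 CPM with WZ4002, against 158.09 and 185.22 CPM with vehicle (-0.28, interval -0.56 to -0.01, adjusted p = 0.103).

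CD276 was the steadiest of the 5 genes, with group means of 43.4 to 63.1 CPM, a 1.45-fold range. No drug comparison passed the threshold. Parental cells had 60.54 and 64.86 CPM with gefitinib and 60.79 and 35.63 CPM with WZ4002, against 65.34 and 60.85 CPM with vehicle. The gefitinib difference was -0.01 with an interval of -0.40 to 0.39 (adjusted p = 0.975). The WZ4002 difference was -0.43, with an interval of -0.82 to -0.03 (adjusted p = 0.0681), and it turned on a single library. Without the 1st WZ4002 library, at 60.79 CPM, the CD276 difference was -0.81 (adjusted p = 0.00123), and without the 2nd, at 35.63 CPM, it was -0.05.

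In the other populations CD276 lay at 42.59 and 44.18 CPM with WZ4002 and 38.27 and 53.63 CPM with vehicle in GR3 cells (-0.06, interval -0.46 to 0.33). GR2 cells had 47.76 and 45.33 CPM with WZ4002 and 48.97 and 48.41 CPM with vehicle. Both tolerant populations were somewhat higher with drug, at 58.24 and 52.97 CPM with gefitinib against 45.67 and 48.70 CPM with vehicle (0.23, interval -0.16 to 0.63), and at 65.86 and 59.51 CPM with WZ4002 against 48.71 and 50.83 CPM with vehicle (0.33, interval -0.07 to 0.72). Neither passed the threshold (adjusted p = 0.366 and 0.189), although the drug and vehicle libraries did not overlap. How often all genes part in this way was not counted.

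LGALS9 was close to the limit of detection, with 2 to 66 reads per library and 1 CPM or more in only 3 libraries, all drug-treated. It passed the filter on low values only through those libraries, so its differences between drug and vehicle are given as a description with no test. LGALS9B and LGALS9C, near-identical copies, have no row of their own here, so reads of LGALS9 are uncertain. Gefitinib-tolerant cells had 0.96 and 1.67 CPM with gefitinib, against 0.39 and 0.32 CPM with vehicle, a log2 difference of 0.76 (0.53 without the 2nd gefitinib library). WZ4002-tolerant cells had 1.41 and 0.77 CPM with WZ4002, against 0.30 and 0.22 CPM with vehicle, a difference of 0.71 (0.49 without the 1st WZ4002 library). Both pairs of groups were apart, a pattern not counted over all genes.

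Parental cells had 1.40 and 0.19 CPM of LGALS9 with gefitinib and 0.43 and 0.29 CPM with WZ4002, against 0.22 and 0.16 CPM with vehicle. The single value of 1.40 CPM decided the gefitinib difference of 0.51, which was below 0.001 without this library and 1.01 without the other gefitinib library. GR3 cells had 0.45 and 0.95 CPM with WZ4002, against 0.26 and 0.28 CPM with vehicle, and GR2 cells had 0.57 and 0.42 CPM with WZ4002, against 0.14 and 0.06 CPM with vehicle. The drug-treated libraries lay above the vehicle-treated ones in GR2 and GR3 cells, whereas in parental cells 1 gefitinib library lay between the 2 vehicle libraries. The share of all genes with such a separation was not counted.

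The 2 inhibitors were compared at the same labelled dose and time in parental cells, where 0% of genes passed (0 of 15485 by limma and 0 by limma-voom on recovered reads, and 525 at an unadjusted p under 0.05). None of VTCN1, CD274, CD276 and PVR differed between WZ4002 and gefitinib after adjustment (adjusted p = 0.999 for each). The intervals, WZ4002 minus gefitinib, were -1.74 to 0.49 for VTCN1, -0.70 to 0.74 for CD274, -0.81 to -0.03 for CD276 and -0.40 to 0.15 for PVR. LGALS9 passed the filter partly through the 1st parental gefitinib library, so it is given with no test. Its difference was -0.32, and 0.19 without that library. On this scale of CPM plus 1 the interval of CD274, at about 1 CPM, also holds larger ratios of CPM than its log2 width shows. The LGALS9 difference, at lower levels, likewise understates its ratio of CPM. CD276 passed an unadjusted p under 0.05, and without the 1st WZ4002 library its difference was -0.80 (adjusted p = 0.0169), where 343 genes passed.

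Vehicle-treated derivatives were then set against vehicle-treated parental cells, to see whether the ligands differed between the populations before any drug. CD274 was higher in 3 of 4 derivatives. It averaged 12.3 ± 0.09 CPM in GR2 cells, 12.1 ± 3.72 CPM in gefitinib-tolerant cells and 11.6 ± 1.84 CPM in WZ4002-tolerant cells, against 2.85 ± 0.16 CPM in parental cells (SD, n = 2 each). The log2 differences were 1.79 ± 0.34 (adjusted p = 0.00224), 1.74 ± 0.34 (adjusted p = 0.00225) and 1.71 ± 0.34 (adjusted p = 0.0028), and none of these 3 calls was lost without any 1 library. The 3 comparisons share the parental libraries. GR3 cells, at 2.58 ± 0.16 CPM, were close to parental cells (-0.10, interval -0.82 to 0.61, adjusted p = 0.875).

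PVR was also higher in GR2 cells, at 234 ± 1.01 CPM, against 132 ± 13.2 CPM in parental cells (0.82 ± 0.13, adjusted p = 0.000642). Gefitinib-tolerant cells averaged 175 ± 13.1 CPM (0.41 ± 0.13, adjusted p = 0.0367), a call lost without the 1st or 2nd parental library (adjusted p = 0.0544 and 0.241) or the 1st or 2nd gefitinib-tolerant library (adjusted p = 0.242 and 0.0587). WZ4002-tolerant cells averaged 172 ± 19.2 CPM (0.37 ± 0.13, adjusted p = 0.0545, and 0.0452 with median-of-ratios scaling), and GR3 cells 111 ± 1.91 CPM (-0.25 ± 0.13, adjusted p = 0.196).

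VTCN1 was lower in vehicle-treated GR3 cells, at 1.11 ± 0.42 CPM, against 6.28 ± 4.29 CPM in parental cells (-1.67 ± 0.53, adjusted p = 0.0342). The call was lost without the 1st parental library, at 9.31 CPM (-1.03, adjusted p = 0.313), and without the 1st or 2nd GR3 library (adjusted p = 0.0579 and 0.157), and by limma-voom on recovered reads (adjusted p = 0.119). GR2 cells had 0.34 and 0.80 CPM, below both parental libraries, with no test. The tolerant populations did not pass (adjusted p = 0.402 for gefitinib-tolerant and 0.188 for WZ4002-tolerant cells). CD276 was at 45.95 to 49.77 CPM on average in the 4 derivatives, against 63.1 CPM in parental cells, with differences of -0.47 to -0.34, none past the threshold (adjusted p = 0.0879 to 0.225). In GR3 cells CD276 passed without the 1st vehicle library (-0.71, adjusted p = 0.0254). LGALS9 differed by -0.11 to 0.19 (adjusted p = 0.657 to 0.856).

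Of the genes tested, 2 of 4 rose in GR2 cells, where 16.7% of all genes passed and VTCN1 was not tested. In GR3 cells 1 of 5 fell, where 20.8% passed. In gefitinib-tolerant cells 2 of 5 rose, where 19% passed, and in WZ4002-tolerant cells 1 of 5 rose, where 18.4% passed. These counts include LGALS9, which had 2 to 13 reads per vehicle-treated library and could hardly pass at such levels.

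**Figure D3:**
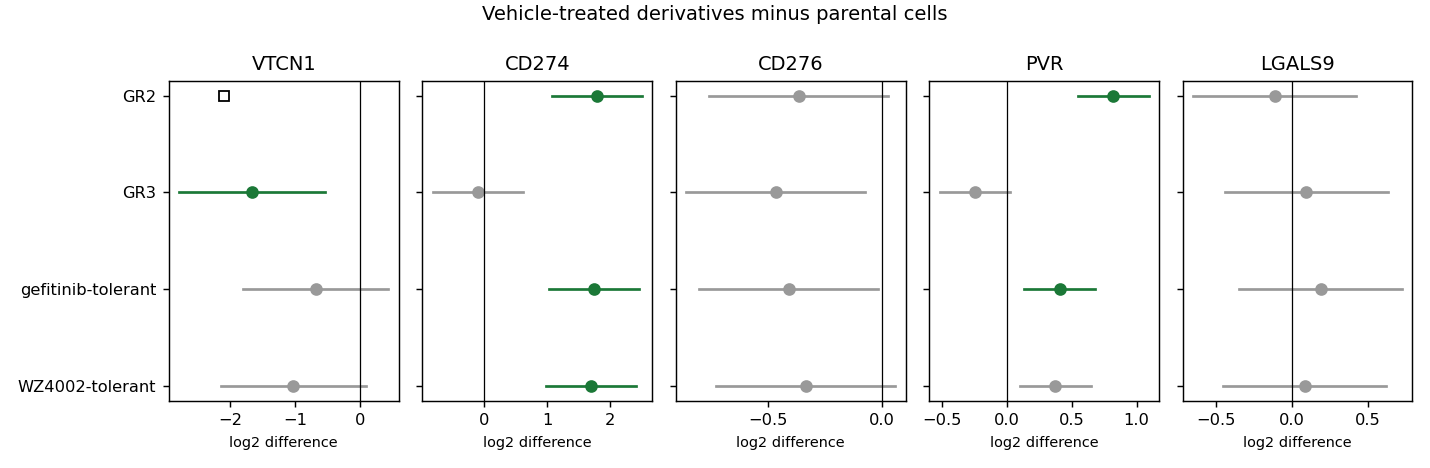
Log2 difference of CPM plus 1 between vehicle-treated derivatives (rows) and vehicle-treated parental cells for the 5 genes (panels, each with its own scale), with 95% confidence intervals. Green marks an adjusted p under 0.05, grey the rest, and the open square is VTCN1 in GR2 cells, which is not tested. CD274 lies at 1.71 to 1.79 in GR2 and both tolerant populations and at -0.10 in GR3 cells.

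Whether a drug response itself differed from that of parental cells was tested as a difference of differences. LGALS9, kept only through drug-treated libraries, is left out of these counts too. None of the other 4 genes passed in GR3 cells given WZ4002, where 1.29% of all genes passed. Nor did any of the 4 pass in WZ4002-tolerant cells given WZ4002 (4.49%) or in gefitinib-tolerant cells given gefitinib (2%). Of these 4 genes, 0, 1 (PVR) and 0 passed by limma-voom on recovered reads. At an unadjusted p under 0.05 there were 1 (PVR), 2 (CD276 and PVR) and 1 (VTCN1) of them. For VTCN1 the response minus that of parental cells was -0.61 in GR3 cells (interval -2.20 to 0.97, adjusted p = 0.714), -1.42 in WZ4002-tolerant cells (-3.00 to 0.16, adjusted p = 0.298) and -2.10 in gefitinib-tolerant cells (-3.69 to -0.52, adjusted p = 0.171). The GR3 value was 0.03 without the 2nd parental vehicle library. The CD274 response in GR3 cells lay 0.98 above the parental one (interval -0.03 to 1.998, adjusted p = 0.321), so the absence of a fall in GR3 cells is not shown to differ from parental cells. The same difference for PVR was 0.53 in GR3 cells (adjusted p = 0.161) and 0.60 in WZ4002-tolerant cells (adjusted p = 0.0727, and 0.0454 by limma-voom). Without the 1st parental WZ4002 library, both CD276 (1.13, adjusted p = 0.00528) and PVR (0.70, adjusted p = 0.0445) passed in WZ4002-tolerant cells.

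**Figure D4:**
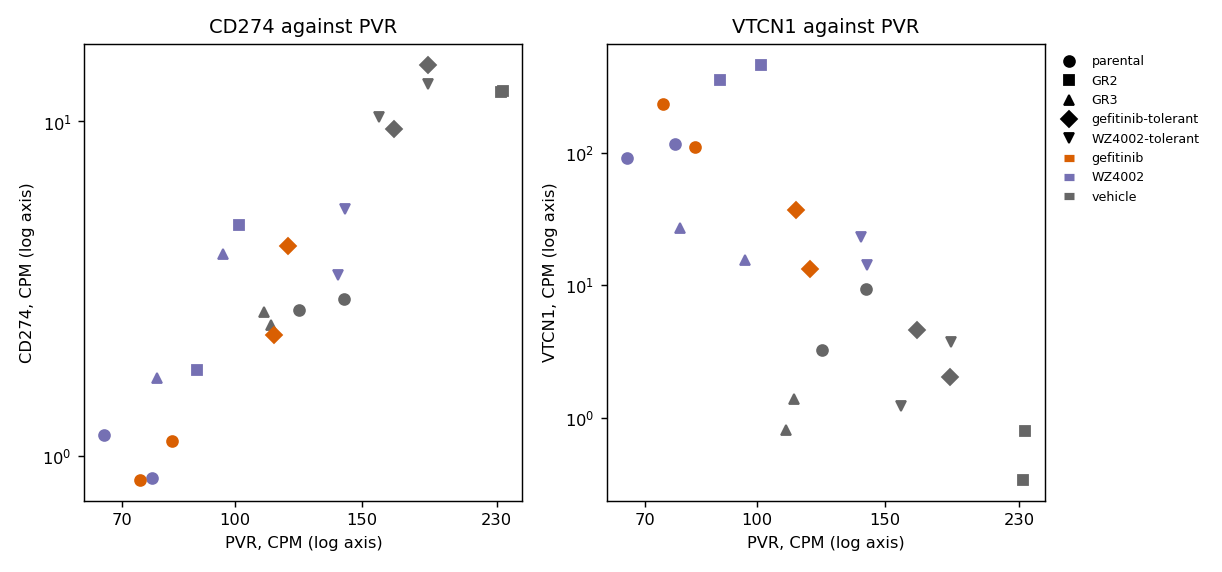
CPM of CD274 (left) and VTCN1 (right) against PVR in each of 22 libraries, all on log axes. Shape marks the population and colour the treatment. CD274 is high where PVR is high, in vehicle-treated GR2 and tolerant cells. VTCN1 is low there, as it is in all vehicle-treated cells, including GR3 cells, where CD274 and PVR are not high.

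Across the 22 libraries CD274 and PVR had similar patterns (Pearson r = 0.92 of log2 CPM plus 1), and VTCN1 ran against both (r = -0.67 with CD274 and -0.76 with PVR). LGALS9 ran weakly with VTCN1 (r = 0.43) and weakly against CD274 and PVR (-0.32 each), and CD276 had r between -0.19 and 0.24 with the other 4. These are descriptions over libraries that share drugs and populations, and the GR2 libraries that led to the choice of VTCN1 are among them.

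The genes whose pattern was most like that of VTCN1 were found among 2505 genes whose group means span at least 2 log2 units. They were SRD5A3, a polyprenol reductase of protein glycosylation (r = 0.96 over 22 libraries), GALM, a galactose mutarotase (0.96), PLA2G10, a secreted phospholipase (0.96), EFNA1, a ligand of EPH receptors (0.96), PIK3IP1, an inhibitor of PI3K (0.95), and CFD, a complement protease (0.95). Over the 11 group means they kept r of 0.96 to 0.97 but ranked 4th to 29th. PIK3IP1 averaged 236 CPM with WZ4002 and 2.56 CPM with vehicle in GR2 cells, and 211 CPM with gefitinib and 7.38 CPM with vehicle in parental cells. EFNA1 averaged 109 CPM with WZ4002 and 11.2 CPM with vehicle in GR2 cells, and 27.6 and 10.4 CPM in GR3 cells. Like VTCN1, both were highest with drug in GR2 and parental cells and lower with drug in GR3 and tolerant cells. They were picked for likeness over these same libraries, so this shared order largely follows from the choice.

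For PVR the most similar were ACP7, an acid phosphatase family member (0.96), GLA, the lysosomal alpha-galactosidase (0.95), and MICAL2, an actin-oxidizing enzyme (0.94). ACP7 averaged 22.2 CPM in vehicle-treated GR2 cells, against 6.29 CPM in vehicle-treated parental cells, and 1.77 CPM in GR2 cells with WZ4002. For CD274 they were C12orf29 (0.92), HIGD1A, a mitochondrial hypoxia-induced protein (0.92), and UBA6, a ubiquitin-activating enzyme (0.92), for LGALS9 GCNT4 (0.86), KANK4 (0.84) and BTBD3 (0.83), and for CD276 PPP1R3G (0.78), SEC13 (0.75) and PLSCR1 (0.74). The likeness is lowest for CD276, the gene that varied least.

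Other ligands of the same kind were taken from a list of 29 checkpoint and co-stimulatory ligands, of which 26 had a row and 23 passed the filter on low values. In parental cells 14 of 23 rose and 4 fell with gefitinib (median log2 difference 0.55, against 0.04 over all genes), where 23.5% of all genes rose and 21.8% fell. With WZ4002 13 rose and 4 fell (median 0.66), where 25.1% of all genes rose and 22.3% fell. In GR3 cells 9 rose and 4 fell (0.34), where 12.1% rose and 9.87% fell. In gefitinib-tolerant cells 11 rose and 3 fell (0.46), where 15.2% rose and 13.6% fell, and in WZ4002-tolerant cells 12 and 2 (0.67), where 17% rose and 15.6% fell. GR2 cells had 16 up and 5 down (0.82), where 27.4% of all genes rose and 28.3% fell. The risen count was 8 in parental cells with gefitinib without the 1st vehicle library. In GR3 cells it was 6 without the 1st vehicle library, 6 without the 1st WZ4002 library and 4 without the 2nd. In gefitinib-tolerant cells it was 4 without the 1st vehicle library and 3 without the 2nd gefitinib library, and in WZ4002-tolerant cells 7 without the 1st vehicle library. The fallen count of 4 in parental and GR3 cells was 1 or 2 without any 1 library, except without the 2nd gefitinib library.

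LGALS3, galectin-3, which binds glycoproteins on T cells, had the largest rise of the list in parental cells. It averaged 324 CPM with gefitinib (1.74 ± 0.24, adjusted p = 6.1e-05) and 419 CPM with WZ4002 (2.05 ± 0.24, adjusted p = 1.37e-05), against 96.3 CPM with vehicle. TNFSF9, the ligand of the co-stimulatory receptor TNFRSF9, averaged 40.2 CPM with gefitinib and 12.5 CPM with vehicle in parental cells (1.63 ± 0.46, adjusted p = 0.00927). This call was lost without the 1st vehicle library (1.10, adjusted p = 0.134) or the 2nd gefitinib library (1.15, adjusted p = 0.115). ICOSLG, the ligand of the co-stimulatory receptor ICOS, went the other way, at 9.31 CPM with gefitinib and 37.7 CPM with vehicle in parental cells (-1.89 ± 0.39, adjusted p = 0.00115). The butyrophilins BTN3A1, BTN3A2 and BTN3A3, of which BTN3A1 senses phosphoantigen for gamma delta T cells, led the rises in the tolerant populations. They are close copies whose reads may be shared. BTN3A3 averaged 12.01 CPM with gefitinib and 2.5 CPM with vehicle in gefitinib-tolerant cells (1.86 ± 0.26, adjusted p = 0.000378). NECTIN4, an adhesion molecule of the PVR family, averaged 68.2 CPM with WZ4002 and 22.6 CPM with vehicle in parental cells (1.56 ± 0.24, adjusted p = 0.000113), and 23.1 and 8.35 CPM in WZ4002-tolerant cells (1.36 ± 0.24, adjusted p = 0.00099).

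Vehicle-treated derivatives were also set against vehicle-treated parental cells for this list. In GR2 cells 3 of 23 rose and 6 fell, where 8.98% of all genes rose and 7.76% fell. In GR3 cells 2 rose and 7 fell (9.77% and 11.1% of all genes), in gefitinib-tolerant cells 2 and 4 (9.39% and 9.64%) and in WZ4002-tolerant cells 1 and 4 (8.72% and 9.73%). Leaving out any 1 library, 1 rose in GR2 and in both tolerant populations and 1 to 2 in GR3 cells. The fallen count in GR2 cells was then 1, or 4 without the 1st parental library, and in GR3 cells 4 without the 2nd parental or the 1st GR3 library. In gefitinib-tolerant cells it was 1 without the 2nd parental or the 1st tolerant library, and in WZ4002-tolerant cells 1 without the 2nd parental and 2 without either tolerant library. NECTIN4 averaged 5.82 CPM in GR3, 9.11 CPM in gefitinib-tolerant and 8.35 CPM in WZ4002-tolerant cells, against 22.6 CPM in parental cells (-1.86, -1.21 and -1.32, adjusted p = 6.62e-05, 0.0026 and 0.00157). These 3 calls held without any 1 library.

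A list of interferon receptors, JAK-STAT and IRF genes was also counted. It includes SOCS1, SOCS3 and PTPN2 and is not limited to genes that raise PD-L1. Of 17, 12 rose and 1 fell in parental cells with gefitinib (median 0.56) and 13 rose and 1 fell with WZ4002 (0.73). Whether these changes bear on CD274 was not tested. Over all genes 23.5% rose and 21.8% fell with gefitinib, and 25.1% and 22.3% with WZ4002. The fall with gefitinib did not pass whichever library was left out. IRF1, the factor through which interferon gamma induces CD274, averaged 31.1 CPM with gefitinib (2.06 ± 0.23, adjusted p = 7.77e-06) and 26.2 CPM with WZ4002 (1.87 ± 0.23, adjusted p = 1.5e-05), against 6.47 CPM with vehicle. STAT2, a partner of the type I interferon response, averaged 57.9 CPM with gefitinib and 66.3 CPM with WZ4002, against 17.8 CPM with vehicle (1.64 ± 0.27 and 1.83 ± 0.27, adjusted p = 0.000187 and 7.15e-05). In GR2 cells 12 of 17 were up and 0 down, where 27.4% of all genes rose and 28.3% fell. IRF1 averaged 84.6 CPM with WZ4002 and 5.67 CPM with vehicle there.

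In GR3 cells 3 of 17 rose and 1 fell (median 0.24), a share near the 22% of all genes that passed there. The IRF1 response in GR3 cells was smaller than in parental cells (-1.62 ± 0.32, adjusted p = 0.0212), a call lost without the 2nd library of any of the 4 groups or the 1st GR3 library given WZ4002 (-1.63 to -1.41, adjusted p = 0.0515 to 0.0792). Vehicle-treated GR3 cells had 20.9 CPM of IRF1, against 6.47 CPM in vehicle-treated parental cells (1.55 ± 0.23, adjusted p = 0.000174). They had 19.9 CPM of NLRC5, the activator of MHC class I genes, against 5.05 CPM (1.76 ± 0.20, adjusted p = 2.11e-05). CD274 averaged 2.58 CPM in the former and 2.85 CPM in the latter. A link of IRF1 or NLRC5 to CD274 was not tested. In gefitinib-tolerant cells 7 rose and 1 fell (15.2% and 13.6% of all genes), and in WZ4002-tolerant cells 6 rose and 1 fell (17% and 15.6%). The risen count was 2 in gefitinib-tolerant cells without the 1st vehicle library and 3 without the 2nd gefitinib library, and in WZ4002-tolerant cells 1 without the 1st vehicle library and 2 without the 1st WZ4002 library. Of 16 interferon-stimulated genes tested, 9 to 12 rose in each of the 6 drug comparisons and at most 1 fell, where 12.1 to 27.4% of all genes rose. The 9 in WZ4002-tolerant cells were 5 without the 1st vehicle library.

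Of 13 genes that act on the PD-L1 protein, 3 rose and 3 fell with gefitinib and 4 rose and 3 fell with WZ4002 in parental cells, shares near the 45.3% and 47.5% of all genes that passed. The risen count was 1 with gefitinib without the 1st vehicle or the 2nd gefitinib library, and 2 with WZ4002 without the 1st vehicle or the 2nd WZ4002 library. CMTM4, which with CMTM6 protects PD-L1 from degradation, averaged 41.8 CPM with gefitinib and with WZ4002, against 91.1 CPM with vehicle (-1.11 ± 0.16 and -1.12 ± 0.16, adjusted p = 6.35e-05 and 5.34e-05). CMTM6 itself averaged 94.8 CPM with WZ4002 and 55.2 CPM with vehicle (0.77 ± 0.13, adjusted p = 0.000236). B3GNT3, which glycosylates PD-L1, averaged 64 CPM with gefitinib and 114 CPM with vehicle (-0.82 ± 0.17, adjusted p = 0.00144). HIP1R, which sends PD-L1 to the lysosome, averaged 42.7 CPM with gefitinib and 21.9 CPM with vehicle in gefitinib-tolerant cells (0.92 ± 0.17, adjusted p = 0.00152).

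Of 6 ligands of natural killer cells tested, 1 rose and 3 fell in parental cells with either drug, where 45.3% of all genes passed with gefitinib and 47.5% with WZ4002. The 1 that rose did not pass without the 1st vehicle library with either drug, nor without the 2nd gefitinib library, and 1 fell with WZ4002 without the 2nd WZ4002 library. In GR3 cells 1 fell (22% of all genes passed), in gefitinib-tolerant cells none passed (28.7%) and in WZ4002-tolerant cells 1 rose (32.6%). ULBP1, a stress-induced ligand of the activating receptor NKG2D, averaged 1.09 CPM with WZ4002 and 7 CPM with vehicle in GR3 cells (-1.78 ± 0.31, adjusted p = 0.00107), and 0.71 and 9.36 CPM in GR2 cells. MICB, another such ligand, averaged 27 CPM in vehicle-treated gefitinib-tolerant and 28.4 CPM in vehicle-treated WZ4002-tolerant cells, against 15.3 CPM in parental cells (0.78 ± 0.24 and 0.85 ± 0.24, adjusted p = 0.0327 and 0.023). The gefitinib-tolerant call was lost whichever of the 4 libraries was left out (adjusted p = 0.0834 and 0.166 without the 1st and 2nd parental library, 0.167 and 0.085 without the 1st and 2nd tolerant library). The WZ4002-tolerant call was lost without the 1st or 2nd parental library (adjusted p = 0.0643 and 0.132) or the 2nd tolerant library (adjusted p = 0.166).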

How the data were processed

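RNA was extracted on columns, selected for polyadenylation and made into libraries with a directional kit, per the labels' protocols. STAR, HTSeq and the build hg19 are named, without versions, in the submitters' processing notes. Whether HTSeq counted by strand is not given in the sources used here. The authors deposited CPM, read counts scaled to the library total and rounded to 2 decimals, in 1 table of 17165 genes and 22 libraries. In every library at least 99.983% of the values were whole multiples of a single step within 0.0051 CPM, against 24.1 to 50.6% by chance, which gave the depths. None of the values was 0 and the lowest was 0.02 CPM, so genes unread in a library were not analysed here.

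Symbols were taken from a table of gene names (16779 matched, 386 did not). The scale of analysis was log2(CPM + 1). Genes with at least 1 CPM in at least 2 libraries were kept, 15485 of 17165. The 11 group means were estimated together by limma 3.58.1 (R 4.3.3), whose empirical Bayes variances followed a trend on the mean level and had 11 residual degrees of freedom. Adjusted p-values (Benjamini-Hochberg) run over all 15485 genes of a comparison, with a threshold of 0.05. The fit was tested on simulated data. The libraries of a pair differed by a chi-square per gene of 3.48 (vehicle-treated GR2 cells) to 87.5 (vehicle-treated GR3 cells) and were counted as 2 samples.

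The 5 genes and the gene lists were chosen with earlier results of these data known. Named from a list were up to 3 genes past the threshold with the largest difference and at least 5 CPM in a group compared, and not every gene so chosen is printed. Genes like VTCN1 were the 6 with the highest Pearson r over the 22 libraries among genes whose group means span 2 log2 units, and for the other genes the 3 highest of 14524. The interferon-stimulated, natural killer ligand, adenosine, ERK output and FOXO lists were counted in the same way.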

Additional observations from a re-analysis of the deposited data

How the results depend on the processing

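Tried were a pseudocount of 0.1, no filter on low values, median-of-ratios scaling, the replicate number as a block, the spread taken from the groups compared alone, each library left out in turn and, chosen after seeing the data, limma-voom on reads recovered from the CPM steps. The count test planned was not run, and limma-voom is given in its place. A comparison with 1 library left in a group assumes that it varies like the others. VTCN1 kept its direction in all 6 drug comparisons under all of these, and no filter changed no call. The cause of the changes below was not tested.

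With a pseudocount of 0.1 the differences of low genes were larger: 9.32 for VTCN1 and 1.59 for LGALS9 in GR2 cells, -3.16 for VTCN1 in vehicle-treated GR2 against parental cells, and 1.59 for LGALS9 in gefitinib-tolerant cells. The CD274 response of WZ4002-tolerant minus parental cells became 0.0355, and 124 genes passed in the GR3 response. With median-of-ratios scaling, PVR passed in vehicle-treated WZ4002-tolerant cells (0.384). The replicate numbers are not stated to pair libraries: over 55 pairs of groups the deviations of same-numbered libraries correlated at -0.464 to 0.633 (median 0.0514, 20 over 0.1). With the replicate block CD276 passed in parental cells given WZ4002 (-0.429, adjusted p = 0.0495) and 344 genes passed in the GR3 response. With limma-voom, CD276 in parental cells given WZ4002 (-0.495) and PVR in GR3 cells given WZ4002 (-0.408) passed, as did the PVR response of WZ4002-tolerant cells (0.680), and VTCN1 in vehicle-treated GR3 cells did not (-2.23). In GR2 cells limma-voom gave 9.66 for VTCN1 and 2.24 for LGALS9, and -3.54 for VTCN1 between vehicle-treated GR2 and parental cells. It turned CD274 in GR3 cells to -0.0523, the GR3 response of VTCN1 to 0.0121 and the WZ4002-tolerant response of CD274 to 0.178, and 88 and 186 genes passed in the GR3 and gefitinib-tolerant responses.

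With the spread of the compared groups alone, 693 genes passed in GR3 cells given WZ4002, 4585 and 1046 in vehicle-treated GR2 and GR3 cells, and 9, 218 and 690 in the GR3, WZ4002-tolerant and gefitinib-tolerant responses. CD276 passed in vehicle-treated GR2 cells (-0.366), while VTCN1 in vehicle-treated GR3 cells (-1.67) and PVR in vehicle-treated gefitinib-tolerant cells (0.407) did not.

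Leaving out 1 library, the genes past the threshold numbered 4525 to 5898 with gefitinib and 4840 to 6409 with WZ4002 in parental cells (lowest without the 1st vehicle library), 0 to 343 between the inhibitors (most without the 1st WZ4002 library), 1729 to 3688 in GR3 cells, 976 to 4233 in gefitinib-tolerant cells (lowest without the 2nd gefitinib library) and 1401 to 4184 in WZ4002-tolerant cells (lowest without the 1st vehicle library). Between vehicle-treated cells they numbered 769 to 1404 for GR2, 1827 to 3168 for GR3, 1203 to 2086 for gefitinib-tolerant and 1300 to 1677 for WZ4002-tolerant cells, and in the responses 46 to 1059, 174 to 1076 and 90 to 254 for GR3, WZ4002-tolerant and gefitinib-tolerant cells.

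The log2 differences of the ligands then ran over these ranges. In parental cells CD274 ran from -1.05 to -0.865 and CD276 from -0.0594 to 0.0417 with gefitinib, while LGALS9 ran from 0.000459 without the 1st gefitinib library to 1.01 without the 2nd. With WZ4002 CD274 ran from -1.05 to -0.831 and CD276 from -0.806 to -0.0520. Between WZ4002 and gefitinib CD274 ran from -0.0871 to 0.129, CD276 from -0.797 to -0.0431 and LGALS9 from -0.821 to 0.191. In GR2 cells CD274 ran from -2.24 to -1.17. In GR3 cells CD274 ran from -0.401 to 0.488, CD276 from -0.300 to 0.176 and PVR from -0.500 to -0.204. In gefitinib-tolerant cells VTCN1 ran from 1.79 to 3.21, CD274 from -1.96 to -1.30, PVR from -0.669 to -0.517 and LGALS9 from 0.533 to 0.979. In WZ4002-tolerant cells VTCN1 ran from 2.01 to 3.10, CD274 from -1.49 to -0.958 and LGALS9 from 0.491 to 0.936. Of the response differences, those of GR3 cells ran from -1.25 to 0.0262 for VTCN1 and from -0.00977 to 0.745 for CD276, and that of LGALS9 in gefitinib-tolerant cells from -0.257 to 0.756. Of 246 calls on named list genes, 95 were lost without some library.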

Other observations

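Genes outside the ligand lists also changed with the drugs. Over all genes tested, 23.5% rose and 21.8% fell in parental cells with gefitinib, 25.1% and 22.3% with WZ4002, 27.4% and 28.3% in GR2, 12.1% and 9.87% in GR3, 15.2% and 13.6% in gefitinib-tolerant and 17% and 15.6% in WZ4002-tolerant cells. Of 16 genes switched on by ERK signalling, 15 fell in parental cells with either drug, 14 each in GR2, GR3 and gefitinib-tolerant cells and 10 in WZ4002-tolerant cells, while 1 rose in GR3 cells and 0 elsewhere. The count in gefitinib-tolerant cells was 9 without the 1st vehicle library and 8 without the 2nd gefitinib library. ETV5, an ETS factor of that list, averaged 12.05 CPM with WZ4002 and 59.2 CPM with vehicle in WZ4002-tolerant cells (-2.38 ± 0.38, adjusted p = 0.000644), and 0.815 CPM with WZ4002 and 111 CPM with vehicle in parental cells (-5.94 ± 0.38, adjusted p = 1.08e-07). Its fall was smaller in the tolerant cells (difference of responses 3.56 ± 0.54, adjusted p = 0.00261).

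A list of genes tied to FOXO and PI3K was also counted, which includes FOXO1, FOXO3, FOXO4 and PIK3IP1 themselves. Of 14 tested, 10 rose and 0 fell in parental cells with gefitinib, and 11 and 1 with WZ4002. The counts were 10 and 2 in GR2, 6 and 1 in GR3, 8 and 1 in gefitinib-tolerant and 7 and 1 in WZ4002-tolerant cells. The shares of all genes are given above. The risen count was 3 in GR3 cells without the 1st vehicle library, and 4 in gefitinib-tolerant cells without the 1st vehicle or the 2nd gefitinib library. DEPP1, a gene induced by FOXO factors, averaged 87.7 CPM with WZ4002 and 12.3 CPM with vehicle in GR3 cells (2.78 ± 0.36, adjusted p = 0.000103).

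The adenosine and tryptophan pathways make or sense small molecules that also restrain T cells, and 4 of their genes were tested. In parental cells 1 rose and 1 fell with gefitinib, where 45.3% of all genes passed, and 0 and 1 with WZ4002 (47.5%). The counts were 0 and 3 in GR2 (55.7%) and 0 and 1 in GR3 cells (22%). They were 0 and 2 in gefitinib-tolerant (28.7%) and in WZ4002-tolerant cells (32.6%). With 1 library left out in turn, the fallen count was 0 in both parental comparisons, 2 to 3 in GR2, 0 to 1 in GR3, 0 to 2 in gefitinib-tolerant and 0 to 1 in WZ4002-tolerant cells, and the risen count in parental cells with gefitinib was 0 to 1. KYNU, which breaks down kynurenine, averaged 13.9 CPM in vehicle-treated GR2 cells, against 1.16 CPM in vehicle-treated parental cells (2.81 ± 0.20, adjusted p = 5.13e-07), and 2.27 CPM in GR2 cells with WZ4002.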
